A study of Mus musculus with 12 samples.

Results

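The 10 genes described here are Xbp1, Prdm1, Irf4, Sdc1, Tnfrsf17, Mzb1, Jchain, Derl3, Fkbp11 and Hspa5, a set of plasma cell and antibody secretion genes chosen by name among the 35275 genes of an RNA-Seq table of mouse CD4+ T cells. All 10 were in the table. The 12 libraries, from female mice of 9 to 12 weeks, fell into 4 groups with 3 replicates apiece, which the study counts as mice although no label ties a library to an animal. B6 mice (C57BL/6) and SLE123 mice (B6.NZMSle1/Sle2/Sle3) were either left untreated or given anti-CD45RB (clone MB23G2). SLE123 mice have the B6 background with the lupus susceptibility intervals Sle1, Sle2 and Sle3 of an NZM strain. Anti-CD45RB is an antibody against an isoform of the phosphatase CD45 and induces transplant tolerance. It was given in 5 injections of 100 μg each from day 0 to day 7. The CD4+ T cells were purified by negative magnetic selection. The methods also describe a later split into CD25+ and CD25- cells, and the sample titles name no such fraction. Values are FPKM, the fragments of a gene scaled by transcript length and library depth.

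Plasma cells are the antibody-secreting end stage of B cell development. Prdm1 and Irf4 encode transcription factors that close the B cell program and open the secretory one, and Xbp1 encodes the factor that enlarges the endoplasmic reticulum (ER) so that large amounts of immunoglobulin can be folded and exported. Some of these genes are not restricted to plasma cells: Irf4 and Prdm1 are also used by activated and regulatory T cells, and Hspa5 is expressed in every cell. In bulk samples such as these, more cells of a type and more RNA per cell cannot be told apart.

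The promoters of the ER genes carry the link to the unfolded protein response, the pathway that Xbp1 and Atf6 drive, and they are shown for that reason. RefSeq windows of 250 bases before to 50 bases after the start of transcription were at hand for 9 of the 10 genes, in build GRCm38.p6. They were searched on both strands for the ER stress response element (ERSE; CCAAT and CCACG with any 9 bases between them) and for the core of the unfolded protein response element (TGACGTG). The matches, which do not overlap each other, are in capitals.
Hspa5, the 250 bases before the start, chr2:34771840-34772089, plus strand: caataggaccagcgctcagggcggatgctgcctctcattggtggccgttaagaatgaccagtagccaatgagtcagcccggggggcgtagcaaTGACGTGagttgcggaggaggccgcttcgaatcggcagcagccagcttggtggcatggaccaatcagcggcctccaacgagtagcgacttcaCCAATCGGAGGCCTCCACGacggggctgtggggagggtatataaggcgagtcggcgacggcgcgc
Derl3, the 250 bases before the start, chr10:75893148-75893397, plus strand: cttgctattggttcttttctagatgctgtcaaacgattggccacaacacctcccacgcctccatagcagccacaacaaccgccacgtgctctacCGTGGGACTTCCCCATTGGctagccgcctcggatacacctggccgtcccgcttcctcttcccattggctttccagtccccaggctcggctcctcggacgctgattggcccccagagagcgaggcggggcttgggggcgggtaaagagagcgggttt
Fkbp11, from 100 bases before to 20 bases after the start of 1 of its RefSeq transcripts, chr15:98727608-98727727, minus strand: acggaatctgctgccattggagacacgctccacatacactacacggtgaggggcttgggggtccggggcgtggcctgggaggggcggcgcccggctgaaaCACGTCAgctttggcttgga
The ERSE was in the windows of 2 of the 9 genes, Hspa5 and Derl3, and in 0.119% of all 32851 windows. In Hspa5 it began 65 bases before the start, and in Derl3 it lay on the other strand, beginning 156 bases before the start. TGACGTG was also in 2 of the 9, Hspa5 and Fkbp11, and in 2.01% of all windows. It began 157 bases before the start of Hspa5. In Fkbp11 it lay on the other strand, at the start of the printed transcript. That start is inside the gene, downstream of its annotated 5' end at base 98728198. A match of letters is not evidence that a factor was bound in these cells.

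Library depth was 13562933 to 23641603 fragments, recovered from the FPKM values. T cell markers summed to 3782 to 5163 FPKM per library over the 10 genes of the list, and CD8 markers to 4.23 to 19.4 FPKM. T cell transcripts were thus abundant in all 12 libraries, and the purity of the cells was not tested. Immunoglobulin transcripts, which T cells do not make, were present in all 12 as well. They were summed over the 257 annotated immunoglobulin genes and segments. The sum was 0.327% to 1.46% of the summed FPKM in B6 libraries and 11.3% to 39.8% in SLE123 libraries. Of the recovered fragments, they made up 0.0895% to 0.336% in B6 and 2.51% to 12.2% in SLE123. Some libraries stood apart. Replicates 2 and 3 of treated SLE123 used the immunoglobulin V segments almost identically (Pearson r = 0.994 over 181 segments, against 0.865 to 0.910 for the 14 other pairs of SLE123 libraries). Over all genes they differed by more than counting noise, but they were the most alike pair within a group. Their chi-square per degree of freedom was 2.42, against 3.24 to 77.0 for the other pairs within a group. Liver transcripts summed to 49.0 to 57.5 FPKM in each B6 library, to 54.9 FPKM in treated SLE123 replicate 1 and to at most 0.540 FPKM in the other 5 SLE123 libraries. Among untreated libraries this division ran along strain, so strain and the division cannot be told apart there. Replicate 3 of untreated SLE123 had the most B cell transcripts. Its B cell list summed to 326 FPKM, against at most 116 FPKM in any other library. It also had the most C1qa, a macrophage gene, at 14.0 FPKM against at most 0.815 FPKM. Its myeloid list sum of 126 FPKM was near the 123 FPKM of treated B6 replicate 1. The part of these libraries in the results was not tested directly. Results of the 10 genes that changed without 1 of them are given as such.

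The first comparison was of the strains without treatment. All 10 genes were higher in SLE123 than in B6, by limma with Benjamini-Hochberg adjustment over 13115 tested genes at a threshold of 0.05, and the 3 SLE123 libraries were above the 3 B6 libraries for each gene. Of all tested genes, 22.8% were called higher in this comparison, and 29.1% had the SLE123 libraries entirely above the B6 libraries. The differences in log2(FPKM + 1) ran from 0.92 for Hspa5 to 6.21 for Mzb1 with a median of 3.11, and the median of all tested genes was -0.03. All 10 calls also held without any 1 of the 6 libraries, replicate 3 of untreated SLE123 included. All 10 genes passed the filter on low values, a mean of 0.5 FPKM over the 12 libraries, but Tnfrsf17 passed only through SLE123, since its mean over the 6 B6 libraries was 0.214 FPKM.

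**Figure D1:**
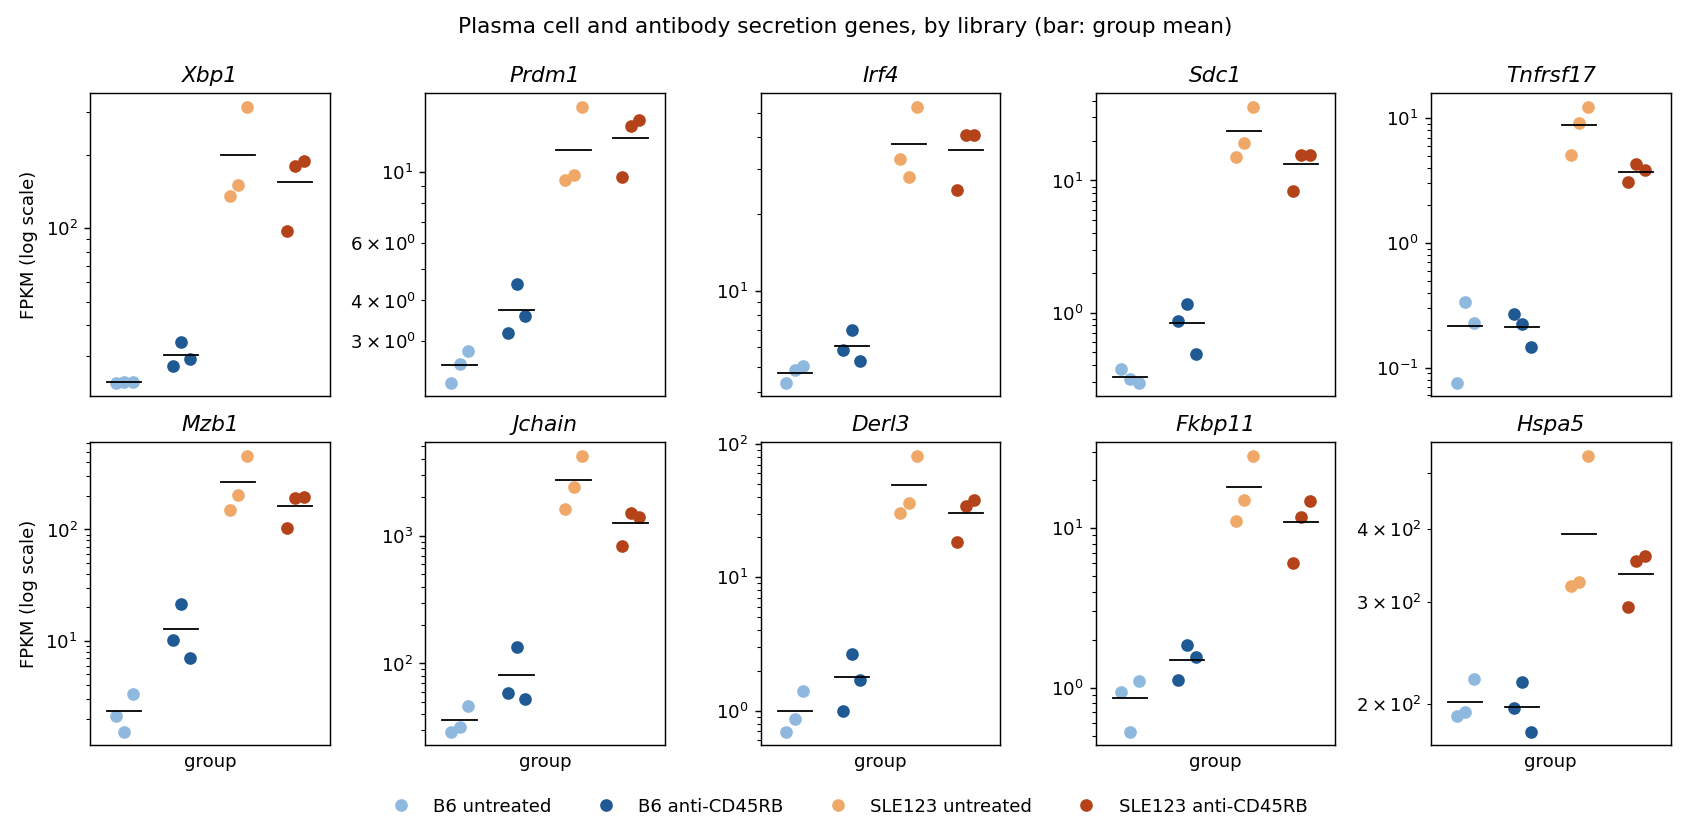
FPKM (log scale) of the 10 genes in the 12 libraries, coloured by group, 3 libraries per group in order of replicate number, with the group mean as a bar. The 6 SLE123 libraries lie above the 6 B6 libraries for every gene, least so for Hspa5.

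Among the transcription factors, Xbp1 (chr11:5520659-5525893, plus strand) was at 23.3, 23.5 and 23.6 FPKM in untreated B6 and at 136, 150 and 313 FPKM in untreated SLE123. The B6 values were nearly the same, while 1 SLE123 library, replicate 3, was 2.30 times as high as the lowest. The difference was 2.93 ± 0.29 (SE) on the log2 scale (adjusted p = 0.000282, limma), an 8.51-fold ratio of means. Prdm1 (chr10:44437177-44528501, minus strand) was at 2.23, 2.55 and 2.80 FPKM in untreated B6 and at 9.45, 9.74 and 15.8 FPKM in untreated SLE123. Its difference of 1.81 ± 0.19 was the smallest after that of Hspa5 (adjusted p = 0.000394, limma). Irf4 (chr13:30749226-30766976, plus strand) was at 4.35, 4.87 and 5.05 FPKM in untreated B6 and at 28.1, 32.8 and 52.7 FPKM in untreated SLE123. The groups were far apart, with a difference of 2.71 ± 0.21 (adjusted p = 0.000105, limma). The 3 factors were thus 4.62 to 8.51 times as high in untreated SLE123 as in untreated B6 by the ratio of means.

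The surface proteins of plasma cells had low levels in B6. Sdc1 (chr12:8771323-8793715, plus strand) encodes CD138, the proteoglycan by which plasma cells are usually recognised. It was at 0.295, 0.315 and 0.373 FPKM in untreated B6, which is 15 to 19 fragments per library, and at 15.2, 19.4 and 36.0 FPKM in untreated SLE123. The ratio of means was 71.7, and the difference on the log2(FPKM + 1) scale, which understates the change of genes near 0, was 4.12 ± 0.28 (adjusted p = 5.36e-05, limma). Tnfrsf17 (chr16:11313812-11320074, plus strand) encodes BCMA, a receptor that keeps plasma cells alive. Untreated B6 libraries held 1 to 5 fragments of it (0.0761, 0.229 and 0.339 FPKM), so no ratio is given, and untreated SLE123 libraries were at 5.05, 9.13 and 12.3 FPKM. The difference was 2.95 ± 0.27 (adjusted p = 0.000219, limma).

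Genes of antibody assembly differed most. Jchain (chr5:88519809-88527891, minus strand) encodes the chain that joins IgM and IgA into polymers. It was at 29.2, 31.6 and 46.8 FPKM in untreated B6 and at 1634, 2429 and 4204 FPKM in untreated SLE123. Replicate 3 was the highest SLE123 library, at 2.57 times the lowest of that group. The difference between the strains was 6.14 ± 0.34 (adjusted p = 2.55e-05, limma), a 76.8-fold ratio of means. Mzb1, an ER protein of B cells and plasma cells that assists immunoglobulin assembly, was at 1.53, 2.12 and 3.36 FPKM in untreated B6 and at 149, 204 and 456 FPKM in untreated SLE123. The ratio of means was 115 and the difference 6.21 ± 0.40 (adjusted p = 4.28e-05, limma).

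The ER genes covered the whole range. Derl3 (chr10:75893413-75895941, plus strand), a channel component that returns misfolded proteins to the cytosol, was at 0.696, 0.869 and 1.40 FPKM in untreated B6 and at 30.4, 36.0 and 81.0 FPKM in untreated SLE123. Its difference was 4.54 ± 0.34 (adjusted p = 8.82e-05, limma). Fkbp11 (chr15:98724366-98728198, minus strand), a prolyl isomerase of secretory cells, was at 0.529, 0.933 and 1.11 FPKM in untreated B6 and at 11.1, 14.9 and 28.2 FPKM in untreated SLE123. Its difference was 3.27 ± 0.31 (adjusted p = 0.000239, limma). Hspa5 (chr2:34771970-34777547, plus strand), which encodes BiP, the main chaperone of the ER, was abundant in both strains. It was at 191, 194 and 221 FPKM in untreated B6 and at 320, 325 and 535 FPKM in untreated SLE123. The 1.95-fold ratio of means, a difference of 0.92 ± 0.20, was the smallest of the 10 and was still called (adjusted p = 0.0103, limma). Derl3 and Hspa5, both with an ERSE in the windows printed above, were thus among the genes with the larger differences and the gene with the smallest.

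The same strain comparison was made among treated mice. Again all 10 genes were higher in SLE123 and the libraries of the strains did not overlap, where 29.6% of all tested genes were called higher and 34.7% had such a lack of overlap. The differences were smaller than without treatment for each of the 10, from 0.76 for Hspa5 to 3.99 for Jchain with a median of 2.31. All 10 remained called without replicate 1 of treated SLE123, without any other single library, and with replicates 2 and 3 of treated SLE123 averaged as 1 sample, where the largest adjusted p was 0.00496 (limma). Without replicate 1 of treated SLE123, liver transcripts divided the treated libraries by strain as well, so that fit cannot tell strain and this division apart. Jchain was at 52.7, 59.2 and 134 FPKM in treated B6 and at 826, 1401 and 1517 FPKM in treated SLE123, a 15.2-fold ratio of means. Mzb1 was at 7.03, 10.2 and 21.3 FPKM in treated B6 and at 103, 190 and 195 FPKM in treated SLE123, a 12.7-fold ratio. In untreated mice the ratio of Mzb1 was 115, or 75.5 without replicate 3 of untreated SLE123.

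Treatment changed few of these genes past the threshold. In B6, 2 of the 10 were called, both higher after anti-CD45RB, where 8.74% of all tested genes were called higher. These were Mzb1, which rose from 2.34 ± 0.937 to 12.8 ± 7.47 FPKM (mean ± SD, n = 3), a log2 difference of 1.95 ± 0.38 (adjusted p = 0.0198, limma), and Xbp1, which rose from 23.4 ± 0.117 to 30.2 ± 3.67 FPKM, a difference of 0.34 ± 0.08 (adjusted p = 0.0324, limma). For both, the 3 treated libraries were above the 3 untreated ones. Neither call held without replicate 3 (adjusted p = 0.0651 for Mzb1 and 0.0918 for Xbp1, limma) or without replicate 4 of untreated B6 (0.0773 and 0.101). That of Xbp1 was also lost without replicate 5 of untreated B6 (0.0765) or of treated B6 (0.0726), where that of Mzb1 held and, in the latter case, Sdc1 was called (0.0312). Neither gene was called when no filter on low values was used, or with the replicate number as a block, a fit that called 0 of the 13115 tested genes in B6. Markers of other cells moved in the same comparison. Myeloid markers summed to 8.71 to 15.2 FPKM without and 53.9 to 123 FPKM with treatment, with 5 of 8 tested genes called higher, erythroid markers to 0.761 to 2.20 and 3.73 to 12.7 FPKM, with 2 of 5 called higher, and 6 of 10 T cell markers were called lower. With treatment in B6, 6.12% of all tested genes were called lower. In untreated SLE123 5 of 8 myeloid and 5 of 5 erythroid markers were higher than in untreated B6, where 22.8% of all tested genes were. The part of these other cells in the levels of the 10 genes was not tested.

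Another 5 genes were higher in each treated B6 library than in each untreated one without passing the adjusted test, namely Jchain, Sdc1, Prdm1, Irf4 and Fkbp11. Such a lack of overlap in this direction was found for 19.4% of all tested genes. Jchain was at 29.2, 31.6 and 46.8 FPKM without and at 52.7, 59.2 and 134 FPKM with treatment, a difference of 1.07 ± 0.36 (adjusted p = 0.089, limma). Sdc1 was at 0.490, 0.864 and 1.16 FPKM with treatment, up to 60 fragments, and its difference was 0.45 ± 0.14 (adjusted p = 0.0721, limma). Prdm1 was at 3.17, 3.58 and 4.49 FPKM with treatment, a difference of 0.42 ± 0.12 (adjusted p = 0.0613, limma). Derl3, Tnfrsf17 and Hspa5 overlapped between the groups, and Hspa5 had means of 202 FPKM without and 198 FPKM with treatment. The count fit of limma-voom on the recovered fragments called 6 of the 10 higher, as it did 1543 of the 13115 tested genes. The 6 were Jchain, Sdc1, Prdm1 and Irf4 in addition to Mzb1 and Xbp1.

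In SLE123, 0 of the 10 genes passed the test of anti-CD45RB against no treatment by limma, and 2 had an unadjusted p under 0.05. Of the 13115 tested genes, 0.0381% were called and 1369 had an unadjusted p under 0.05. voom on the recovered fragments also called 0 of the 10. The fitted difference was below 0 for 9 genes and above 0 for Prdm1, and the groups did not overlap for Jchain and Tnfrsf17, where 6.02% of all tested genes had each treated library below each untreated one. Jchain was at 1634, 2429 and 4204 FPKM without and at 826, 1401 and 1517 FPKM with treatment, a difference of -1.08 ± 0.44 (adjusted p = 0.469, limma). Tnfrsf17 was at 5.05, 9.13 and 12.3 FPKM without and at 3.06, 3.81 and 4.30 FPKM with treatment, a difference of -0.99 ± 0.28 (adjusted p = 0.44, limma). With replicates 2 and 3 of treated SLE123 averaged as 1 sample, these differences were -1.22 and -1.04 and were not called. For the transcription factors the groups overlapped widely, with means of 200 and 155 FPKM for Xbp1, 11.7 and 12.7 FPKM for Prdm1 and 37.9 and 35.6 FPKM for Irf4, untreated and treated.

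Whether treatment acted differently in the strains was tested as the interaction over all 12 libraries. By limma 0 of the 10 genes passed, where 3.64% of all tested genes did. An unadjusted p under 0.05 was found for 5 of the 10 and for 3298 of the 13115 tested genes. The SLE123 effect minus the B6 effect was below 0 for each gene. It was farthest from 0 for Mzb1 (-2.57 ± 0.64, adjusted p = 0.0512, limma) and Jchain (-2.15 ± 0.57, adjusted p = 0.0624, limma). Without replicate 1 of untreated SLE123, 4 genes passed (Mzb1, Jchain, Sdc1 and Tnfrsf17), but then 2917 genes of the whole table did instead of 478. Without replicate 5 of treated B6, Mzb1 passed (adjusted p = 0.0474, limma). voom called 0 of the 10, and 0 passed without replicate 3 of untreated SLE123, without replicate 1 of treated SLE123, or with treated SLE123 replicates 2 and 3 averaged.

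**Figure D2:**
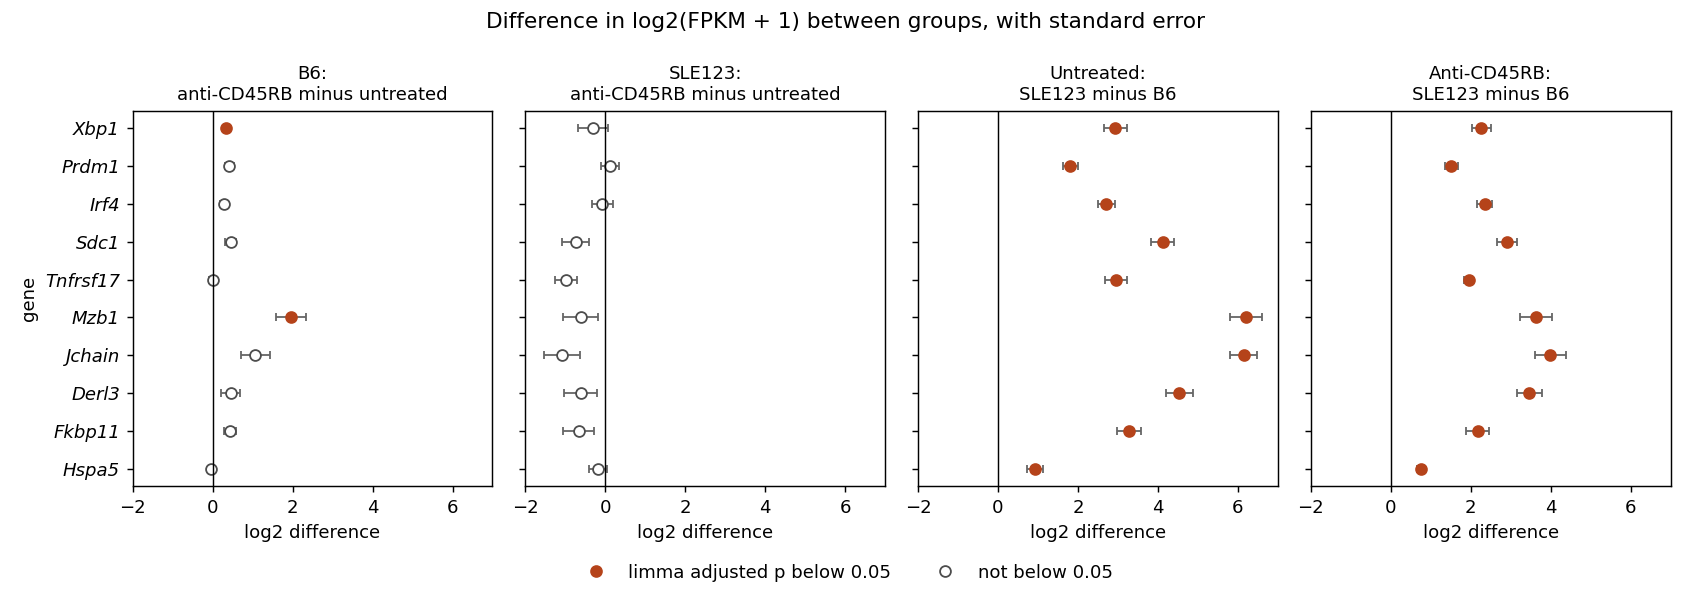
Difference in log2(FPKM + 1) with its standard error for the 10 genes in the 4 comparisons of 3 against 3 libraries, filled where the limma adjusted p is below 0.05. All 10 are filled in both strain comparisons, Xbp1 and Mzb1 in treated against untreated B6, and none in SLE123.

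The genes were then set against the immunoglobulin load, the summed FPKM of the 257 immunoglobulin genes and segments. Untreated B6 libraries had 1354, 1518 and 2163 FPKM, treated B6 2510, 3030 and 6187 FPKM, untreated SLE123 97484, 129529 and 238819 FPKM, and treated SLE123 50287, 105395 and 107053 FPKM. The load was thus 92.5 times as high in untreated SLE123 as in untreated B6 and 22.4 times as high among treated mice by the ratio of means. In B6 each treated library was above each untreated one (2.33-fold by the means), and in SLE123 the treated and untreated libraries overlapped. The two-sided exact permutation test gave p = 0.1 for both strain comparisons and for treatment in B6, the smallest value that 3 against 3 allows, and p = 0.3 for treatment in SLE123. Igkc, the kappa light chain constant gene, had means of 374 FPKM in untreated B6 and 58855.5 FPKM in untreated SLE123. Ighm, the IgM heavy chain, had means of 435 and 15970 FPKM, and Ighg2c, the switched isotype of highest mean level, 17.9 and 7516 FPKM.

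Over the 12 libraries the load spanned a 176-fold range, and the 10 genes kept to it to different degrees. Jchain spanned 144-fold, and its level per 1000 FPKM of immunoglobulin stayed at 19.5 to 21.7 in the 6 B6 libraries and at 13.1 to 18.8 in the 6 SLE123 libraries. Sdc1 spanned 122-fold and was at 0.136 to 0.285 per 1000 in B6 and 0.146 to 0.166 per 1000 in SLE123. Derl3 was at 0.328 to 0.674 and 0.278 to 0.363 per 1000. For these genes the ratio to the load differed by 1.66-fold, 2.09-fold and 2.42-fold between the lowest and the highest of the 12 libraries. Mzb1 was at 1.01, 1.56 and 1.57 per 1000 in untreated B6, at 2.80, 3.36 and 3.44 in treated B6 and at 1.53 to 2.05 in SLE123. Treated B6 libraries therefore had more Mzb1 for their immunoglobulin than any other library.

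Other genes did not scale with the load between the strains. Xbp1 was at 5.54 to 17.2 FPKM per 1000 FPKM of immunoglobulin in B6 and at 1.16 to 1.94 in SLE123. Irf4 was at 1.13 to 3.21 in B6 and 0.217 to 0.495 in SLE123, and Prdm1 at 0.725 to 1.68 and 0.0663 to 0.192. Each SLE123 library thus had less of these factors for its immunoglobulin than any B6 library. The same held for Fkbp11 (0.297 to 0.689 in B6, 0.111 to 0.139 in SLE123) and Hspa5 (35.3 to 141 and 2.24 to 5.84). It also held, by a narrower gap, for Jchain (19.5 to 21.7 and 13.1 to 18.8), so it was not particular to the factors. These are ratios of whole samples, and which cells the RNA of the factors came from was not tested. In untreated B6, Xbp1 was at 23.3 to 23.6 FPKM where Sdc1 was at 0.295 to 0.373 FPKM. Hspa5 spanned only 2.98-fold in level, and its ratio to the load varied 62.9-fold. Fkbp11 and Tnfrsf17 lay between, with ratios that varied 6.21-fold and 6.27-fold, at counts in B6 of at most 22 and 5 fragments.

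**Figure D3:**
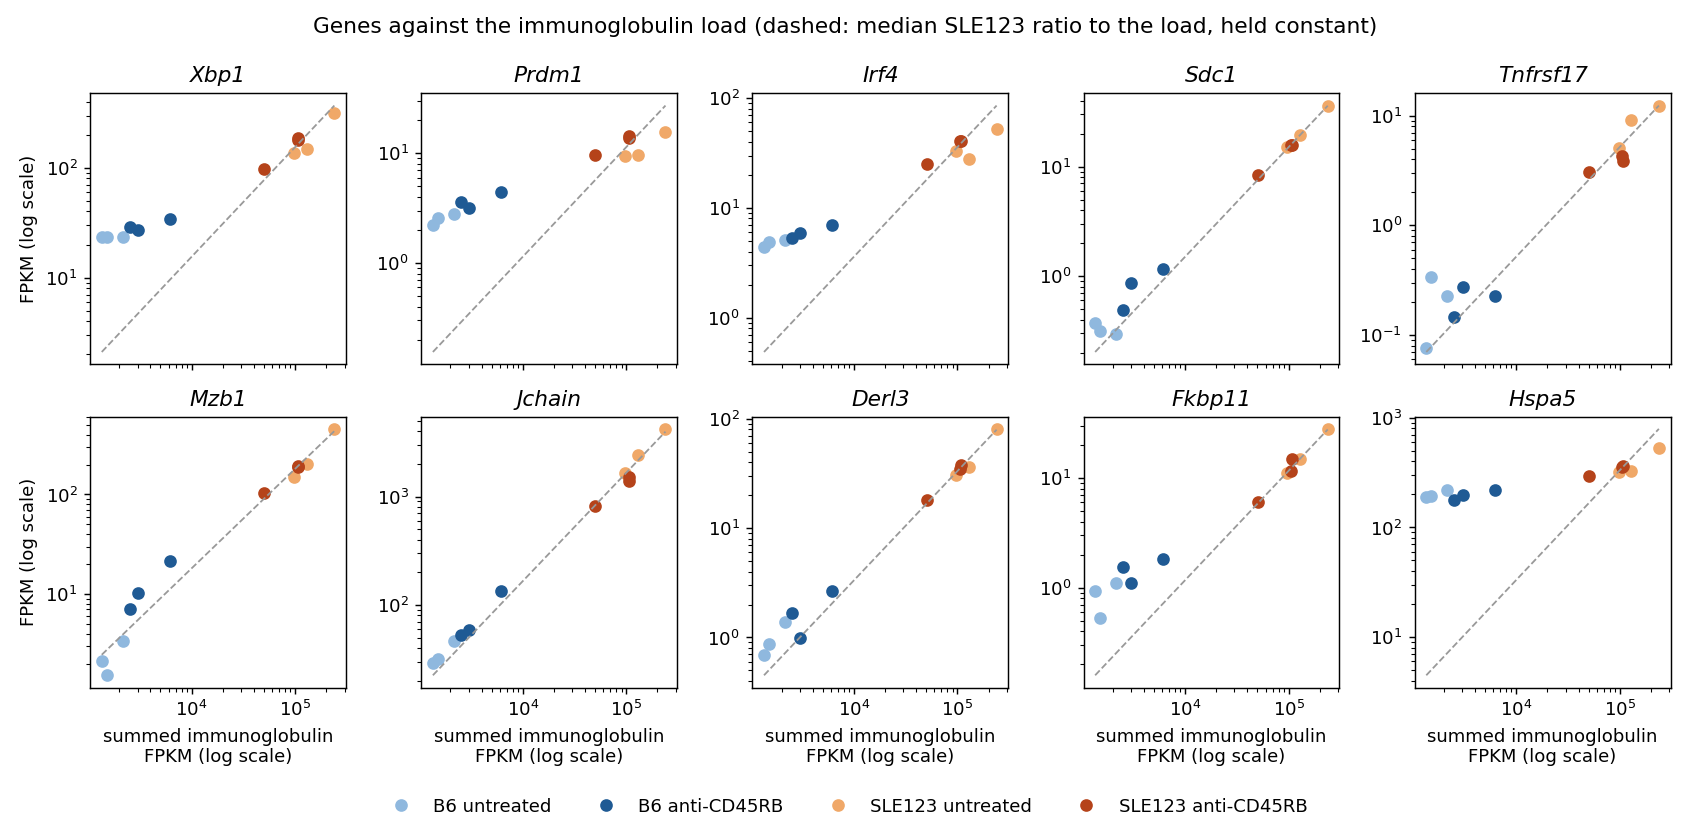
FPKM of each gene against the summed immunoglobulin FPKM of the same library, both on log scales, coloured by group, with a dashed line for a constant ratio to the load set at the median of the 6 SLE123 libraries. Jchain, Sdc1 and Derl3 stay near the line over the 12 libraries, whereas Xbp1, Prdm1, Irf4 and Hspa5 lie far above it in B6.

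Within each strain the relation was tested over its 6 libraries, as log2(FPKM + 1) of the gene against log2 of the load, with two-sided exact permutation of the pairings and Benjamini-Hochberg adjustment over the 20 relations. The points of a relation share library, depth and scaling, and they come from both treatment groups, of which treated B6 had the higher load. In B6, 8 of the 10 genes had a Pearson r above 0 with an unadjusted p under 0.05, as did 11% of all tested genes. After adjustment over the 20 relations 7 passed by Pearson's r and 5 by Spearman's rho. Jchain had the highest r (Pearson r = 0.997, permutation p = 0.00278, adjusted p = 0.0139; Spearman rho = 1, permutation p = 0.00278, adjusted p = 0.0139). Without the 2 libraries farthest from the median load, r was 0.991 over the remaining 4. Irf4 had r = 0.983 with the same permutation p-values and r = 0.921 over 4 libraries, and Mzb1 had r = 0.967 (permutation p = 0.00556, adjusted p = 0.0185; rho = 0.943, permutation p = 0.0167, adjusted p = 0.037) and r = 0.982 over 4. Derl3, Hspa5 and Tnfrsf17 did not pass in B6. As deviations from the treatment group means, r was 0.996 for Jchain, 0.956 for Irf4 and 0.953 for Mzb1.

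In SLE123, 8 of the 10 genes had an r above 0 with an unadjusted p under 0.05, as did 4.8% of all tested genes. After adjustment all but Irf4 and Prdm1 passed by Pearson's r, but only 4 by Spearman's rho, namely Sdc1, Mzb1, Derl3 and Fkbp11. Sdc1 had the highest r (r = 0.996, permutation p = 0.00556, adjusted p = 0.0185; rho = 0.943, permutation p = 0.0167, adjusted p = 0.037) and kept r = 0.975 over the 4 libraries nearest the median. Jchain had r = 0.972 (permutation p = 0.0167, adjusted p = 0.0333; rho = 0.771, permutation p = 0.103, adjusted p = 0.121) and r = 0.828 over 4. Xbp1 had r = 0.931 (permutation p = 0.0361, adjusted p = 0.0481; rho = 0.829, permutation p = 0.0583, adjusted p = 0.0897), but r = 0.01 over 4, and Hspa5 had r = 0.877 (permutation p = 0.0361, adjusted p = 0.0481; rho = 0.829, permutation p = 0.0583, adjusted p = 0.0897), but r = -0.17 over 4. The relations of Xbp1 and Hspa5 in SLE123 therefore rested on replicate 1 of treated and replicate 3 of untreated SLE123, the libraries of lowest and highest load. The alike replicates 2 and 3 of treated SLE123 may not be separate points. With them averaged, r over 5 points was 0.997 for Sdc1, 0.983 for Jchain and 0.943 for Xbp1, and as deviations from the treatment group means over 6 it was 0.995, 0.981 and 0.984. In that highest library Jchain was 2.57 times, Mzb1 3.06 times and Xbp1 2.30 times the lowest untreated SLE123 library, where the load was 2.45 times as high.

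B cell markers are given beside the 10 genes, and no difference between the lists was tested. The list of 15 B cell markers summed to 8.64 to 10.2 FPKM in untreated B6, 35.9 to 47.7 in treated B6, 86.4 to 326 in untreated SLE123 and 51.7 to 80.2 in treated SLE123, and no gene of the list was at 0 in all libraries of a group. Of its 12 tested genes, 10 rose with treatment in B6 with a median of 1.09, 12 were higher in untreated SLE123 than in untreated B6 with a median of 2.81, and 6 were higher and 4 lower in treated SLE123 than in treated B6 with a median of 0.44. With treatment in SLE123 the medians were -0.83 for the B cell list and -0.62 for the 10 genes, with 0 genes of either called by limma. Genes of activated and regulatory T cells, which share Irf4 and Prdm1 with plasma cells, summed to 163 to 227 FPKM in B6 and 767 to 948 FPKM in SLE123, and 14 of 15 were higher in SLE123 in each strain comparison. Beside these counts, 8.74% of all tested genes rose with treatment in B6. In SLE123 22.8% were higher without treatment, and 29.6% were higher and 22.5% lower with it. The part of these other cells in the 10 genes was not tested.

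**Figure D4:**
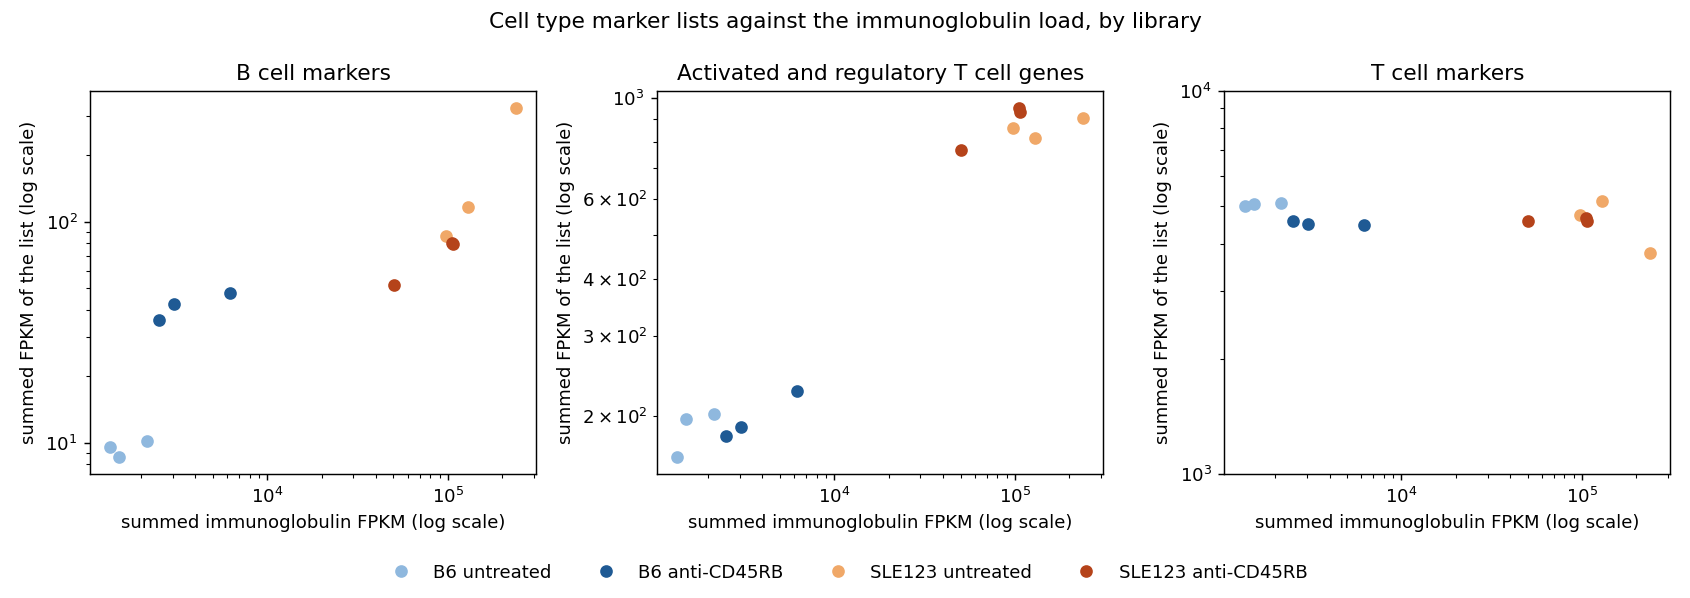
Summed FPKM of the B cell, activated and regulatory T cell, and T cell marker lists against the summed immunoglobulin FPKM by library, all on log scales. Treated B6 libraries have 35.9 to 47.7 FPKM of B cell markers, near the 51.7 of the lowest SLE123 library, at a far lower immunoglobulin load.

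Genes of the same pathways that are not among the 10 were read from lists. Of 20 further genes linked to plasma cell identity, 15 were higher in untreated SLE123 than in untreated B6 and 0 were lower, with a median of 0.94. In this comparison 22.8% of all tested genes were higher. The smallest adjusted p-values were those of Pou2af1, a coactivator of immunoglobulin transcription (3.01 ± 0.23, adjusted p = 9.61e-05, limma), Txndc5, a disulfide isomerase (3.01 ± 0.28, adjusted p = 0.000218, limma), and Creld2, an ER stress-induced protein (2.88 ± 0.31, adjusted p = 0.000431, limma). Of 24 genes for sensors, chaperones and targets of the ER stress response, 18 were higher and 3 lower, with a median of 0.93, where 20.1% of all tested genes were lower. Asns, which makes asparagine, and Sdf2l1, an ER chaperone cofactor, were higher by 2.61 ± 0.22 and 2.56 ± 0.29. Ppp1r15a, a phosphatase subunit that ends the translational arrest of the stress response, was lower by limma (-1.99 ± 0.11, adjusted p = 2.47e-05), with means of 116 FPKM in untreated B6 and 28.4 FPKM in untreated SLE123. The element found in Hspa5 and Derl3, the ERSE, was also in the windows of 5 of the 20 genes of that list with a window, Calr, Hsp90b1, Canx, Pdia6 and Dnajc3.

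Translocation and export genes moved less. Of 29 tested, 19 were higher and 0 lower in untreated SLE123, with a median of 0.56, where 22.8% of all tested genes were higher. Examples were the retrieval receptors Kdelr1 (0.88 ± 0.10) and Kdelr2 (0.98 ± 0.12) and the signal peptidase subunit Spcs3 (1.02 ± 0.14). Of 15 genes of ER-associated degradation, 7 were higher and 0 lower, with a median of 0.29, among them Sel1l (1.19 ± 0.19), Vcp (0.65 ± 0.09) and Derl1 (0.54 ± 0.08). Among treated mice 15 of 20, 18 of 24, 23 of 29 and 9 of 15 of these lists were higher in SLE123, and 3, 3, 2 and 1 were lower. Among all tested genes 29.6% were higher and 22.5% lower. With treatment in B6, 4 of 20, 3 of 24, 2 of 29 and 1 of 15 rose and only Srp72 of the export list fell, where 8.74% of all tested genes rose and 6.12% fell. In SLE123, 0 genes of these lists passed for treatment by limma.

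**Figure D5:**
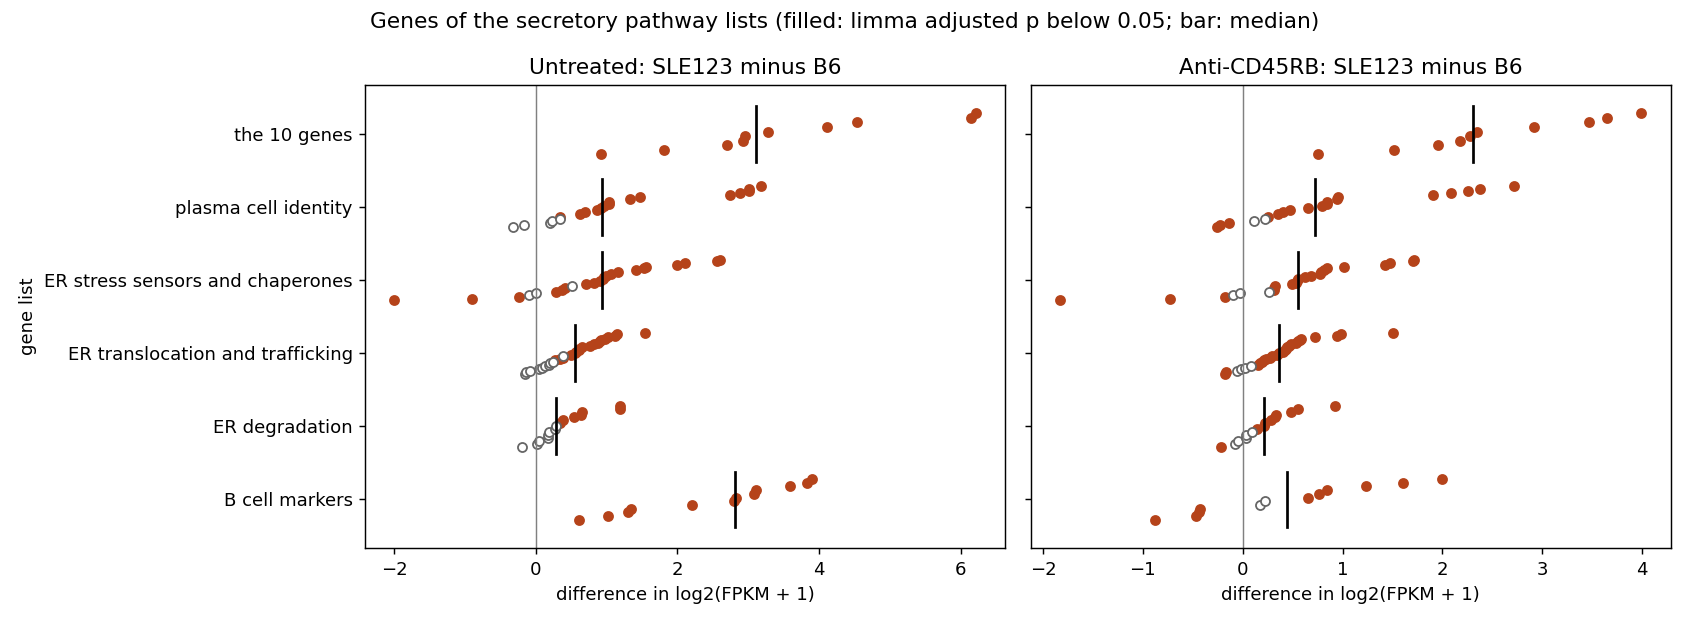
Difference in log2(FPKM + 1) between SLE123 and B6 for each tested gene of 6 lists, without (left) and with anti-CD45RB (right), filled where the limma adjusted p is below 0.05, with the median as a bar. The 10 genes have the highest medians, 3.11 and 2.31, and B cell markers drop from 2.81 to 0.44.

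The genes that Prdm1 represses in B cells did not form 1 pattern. Of 9 tested in the untreated strains, 5 were higher and 2 lower in SLE123, where 22.8% and 20.1% of all tested genes were. Bcl6, the germinal centre and follicular helper T cell repressor, was higher (1.39 ± 0.12, adjusted p = 0.000164, limma), and Bach2 (-1.24 ± 0.20, adjusted p = 0.00258, limma) and Myc (-0.54 ± 0.10, adjusted p = 0.00396, limma) were lower.

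The protein-coding genes whose log2(FPKM + 1) was most like that of 4 of the genes over the 12 libraries were looked up as a description, since the libraries share strain, depth and scaling. For Jchain they were Tpi1, Slpi and Slc39a1 (Pearson r of 0.995, 0.994 and 0.994), for Xbp1 they were Ell2, Stac2 and Cacna1h (each 0.997), for Irf4 Zfp870, Cpd and Creb3l2 (0.997, 0.996 and 0.996), and for Hspa5 Slc35b1, Cpeb3 and Hyou1 (0.992, 0.991 and 0.991). Slpi, a secreted protease inhibitor, had means of 2.45 FPKM in untreated B6 and 370 FPKM in untreated SLE123. Ell2, an elongation factor that plasma cells use for secreted immunoglobulin mRNA, had means of 1.92 and 20.2 FPKM, and Hyou1, an ER chaperone, 28.7 and 59.3 FPKM.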

How the data were processed

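RNA-Seq was carried out on 12 samples of CD4+ T cells, grouped by their strain and treatment labels. Replicates may not all be separate animals, so p-values measure the spread between these samples. The table that the authors deposited holds FPKM values by Ensembl identifier. The submitters' processing notes name CASAVA 1.8, STAR and build mm10, and the counting program is not given in the sources used here. The authors' own tests with DESeq2 were not used. Symbols, gene types and coordinates came from GENCODE M21 (GRCm38).

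FPKM values were transformed as log2(FPKM + 1), and the 13115 genes whose mean over the 12 libraries reached 0.5 FPKM were tested with limma 3.58.1 (R 4.3.3, eBayes with a trend), each comparison on its own 6 libraries and the interaction on all 12, with Benjamini-Hochberg adjustment over all tested genes and a threshold of 0.05. The fit was tested on simulated data. Deposited FPKM values were whole multiples of 1 fragment for 100% of the 23230 genes above 0 (tolerance 0.02), which gave the fragments per gene. A count of 3 fragments on a transcript of 2000 bases corresponds to 0.0634 to 0.111 FPKM, counting error only. On these fragments voom called 2717 genes for treatment in B6, against 1948. Correlations and the immunoglobulin load were tested by exact permutation (scipy 1.17.1).

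Named genes were the 10 members, from each list up to 3 called genes of smallest adjusted p per comparison, and Igkc, Ighm and the switched isotype of highest mean; C1qa was added after its values were seen. The members and lists were chosen with earlier results of these data known. Other scalings, filters, the replicate block and each library left out were tried. Averaging the alike SLE123 libraries, group-centred correlations and ratios without a library were added after the data were seen. 1 gene is not reported here.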

Additional observations from a re-analysis of the deposited data

How the results depend on the processing

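In both strain comparisons all 10 genes stayed called and higher in SLE123 under each alternative tried. Rescaling to TPM moved the median of all tested genes to -0.38 in the untreated and -0.14 in the treated strain comparison, and Hspa5, the smallest difference, was then 0.54 and 0.58. Genes called higher and lower in SLE123 numbered 2990 and 2631 untreated (TPM 1914 and 5974, rescaled without immunoglobulin 3364 and 1641) and 3881 and 2955 treated (TPM 2442 and 4480, without immunoglobulin 5095 and 2012). For treatment in B6, 2 genes were called, against 0 with no filter, 6 with voom on recovered fragments, 1 with all 12 libraries in one fit, 3 when centred on the median log-ratio and 0 with the replicate block, and 0 to 2 when 1 library was left out. For the interaction, 0 were called, against 1 with log2(FPKM + 0.1), 1 with TPM (both Mzb1) and 0 to 4 when 1 library was left out. In SLE123, 5 instead of 8 genes were correlated with the load under TPM. The cause of these changes was not tested.

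Of 820 single values, 13 changed sign, none of them called. With 1 library left out, Tnfrsf17 in B6 ranged from -0.0808 to 0.0770 and Hspa5 in B6 from -0.10 to 0.0405, and in SLE123 Xbp1 ranged from -0.54 to 0.0598, Irf4 from -0.26 to 0.19 and Hspa5 from -0.32 to 0.0527. The interaction of Hspa5 ranged from -0.29 to 0.0812. The values above 0 in SLE123 and in the interaction came without untreated SLE123 replicate 3, and for Irf4 also without treated replicate 1 (0.16). Under TPM, Irf4 (0.12) and Hspa5 (0.0022) in SLE123 and the interaction of Hspa5 (0.0411) were above 0.

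Same-numbered libraries of the treated and untreated groups had deviations correlated at -0.14 and -0.09 in B6 and at 0.14, -0.16 and 0.27 in SLE123, so the numbers were not taken to pair mice. The untreated strains share 1 number and could not be fitted with a replicate block. The block called 0 of the 10 genes in B6 and in SLE123, 10 between treated strains and 0 for the interaction, and of all 13115 tested genes 0, 4, 3414 and 34. Depth limits Tnfrsf17, Fkbp11, Derl3 and Sdc1 in B6, where libraries held 1 to 60 fragments.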

Other observations

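Genes of the cell cycle were also higher in SLE123. All 8 proliferation genes tested were higher there than in B6 both without treatment (median log2 difference 1.65) and with treatment (1.73), and their summed level was 113 to 192 FPKM in the 6 SLE123 libraries against 35.8 to 50.3 FPKM in the 6 B6 libraries. Between the strains, 22.8% of all tested genes were called higher in SLE123 without treatment and 29.6% with treatment. With treatment 0 of the 8 passed in either strain by limma.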
